A study of Mus musculus with 2 samples.

Results

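The Ikaros family genes Ikzf1, Ikzf2, Ikzf3, Ikzf4 and Ikzf5 were described by the ATAC-seq peaks assigned to them, that is, by the peaks whose nearest protein-coding gene interval within 100 kb was one of these 5 genes. ATAC-seq maps accessible DNA by the insertion of sequencing adapters by the Tn5 transposase. The family was assigned 16 of the 23364 regions obtained by merging both peak lists, made up of 16 of 19684 peaks in the Dnmt3a knockout (labelled DNMT3A-KO) and 8 of 17170 peaks in the wild type. The genes were selected on the presence and absence of called peaks in these same lists, an earlier look at which had shown regions of Ikzf1 and Ikzf2 in the knockout alone. The numbers of shared and unshared regions below are therefore a description and were not tested.

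The knockout library came from mast cells of mice deleted for Dnmt3a, a de novo DNA methyltransferase, and the wild-type library from those of littermates matched for age and sex. All animals were females, aged 3 weeks by the series text and 3 to 4 weeks by the growth protocol. Marrow of both was grown for 4 weeks in interleukin 3 until more than 95% stained for Kit and for FcεRIα, the IgE receptor. There was 1 library per genotype, so differences have no replicate error to be set against, and the labels do not state the Dnmt3a exons deleted or the number of mice per culture.

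Depth and identity of the libraries were as follows. The lists hold no read totals; the stated depth was 10 M reads. A median of 9 fragments overlapped a peak summit in the knockout list and a median of 9 in the wild-type list. Fragments here are the units piled up in the authors' processing. Whether these were reads or whole fragments is not given. The lowest local background was 0.0599 and 0.0644 fragments in the knockout and wild-type lists. At Dnmt3a itself 5 knockout and 6 wild-type peaks were called, which does not test the labels without the deleted interval. Of 11 mast cell markers, 11 had an assigned knockout peak and 10 an assigned wild-type peak. Of all protein-coding genes, 46.8% had a knockout peak and 43.6% a wild-type peak. Among markers of other cells, peaks were assigned in the knockout and wild-type lists to 1 and 1 of 8 B cell genes, 3 and 3 of 7 T and NK cell genes, 2 and 2 of 3 regulatory T cell genes, 1 and 2 of 3 basophil genes and 2 and 2 of 5 neutrophil genes. Of the 3 regulatory T cell genes, Il2ra and Ctla4 were assigned peaks in each list. Foxp3, the defining factor gene of these cells, was assigned none in either.

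Ikaros family proteins are zinc finger transcription factors of blood cells. Zinc fingers near the amino end bind DNA, and a second group near the carboxyl end joins family members to each other. In lymphocytes Ikaros recruits chromatin remodelling and deacetylase complexes such as NuRD and can both repress and activate its targets. Ikzf1 encodes Ikaros, needed for lymphocyte development. Ikzf2 encodes Helios, found in regulatory T cells and blood stem cells, Ikzf3 encodes Aiolos, a factor of maturing B cells, Ikzf4 encodes Eos, which works with Foxp3 in mouse regulatory T cells, and Ikzf5 encodes Pegasus. Dnmt3a methylates cytosine in CG dinucleotides; methylation itself was not measured in these libraries.

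Promoter sequences were at hand for 2 of the 5 genes, with 2 start sites for Ikzf1 and 1 for Ikzf5. First and second refer to these 2 Ikzf1 starts only. Both of their windows lie inside the Ikzf1 gene interval, which begins at 11684962. No promoter sequence was at hand for that lower end. They are shown because these starts differed in whether a peak was called, as given below, and in CG content. Each is the 250 bases before the start (RefSeq, GRCm38.p6), written 5′ to 3′ on the gene's strand, with CG dinucleotides in capitals.
Ikzf1 first start, chr11:11685675-11685924, plus strand: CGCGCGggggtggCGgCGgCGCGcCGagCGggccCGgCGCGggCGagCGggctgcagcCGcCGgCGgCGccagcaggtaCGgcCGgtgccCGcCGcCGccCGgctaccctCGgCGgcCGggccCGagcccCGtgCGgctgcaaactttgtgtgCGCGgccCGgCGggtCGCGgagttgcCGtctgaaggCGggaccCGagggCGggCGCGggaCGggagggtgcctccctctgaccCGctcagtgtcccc
Ikzf1 second start, chr11:11689927-11690176, plus strand: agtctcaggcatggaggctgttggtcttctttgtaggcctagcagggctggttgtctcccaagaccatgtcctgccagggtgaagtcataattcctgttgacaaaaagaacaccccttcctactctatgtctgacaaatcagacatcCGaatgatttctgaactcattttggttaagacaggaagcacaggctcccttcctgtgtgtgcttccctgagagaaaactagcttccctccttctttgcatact
Ikzf5 start, chr7:131410479-131410728, minus strand: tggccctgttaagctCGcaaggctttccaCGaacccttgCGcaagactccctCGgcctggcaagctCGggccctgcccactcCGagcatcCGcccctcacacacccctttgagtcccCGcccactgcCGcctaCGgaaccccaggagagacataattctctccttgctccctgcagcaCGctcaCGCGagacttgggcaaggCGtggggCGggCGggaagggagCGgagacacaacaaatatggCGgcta

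The first of the printed Ikzf1 starts was very rich in CG and carried no called peak, while the Ikzf5 start carried a strong one in both genotypes. G and C bases made up 82% of the first Ikzf1 window and 64% of the Ikzf5 window. A start without a called peak is not shown to be closed. The first Ikzf1 window held 44 CG dinucleotides, a number reached by 0.543% of 32619 promoter windows of this length. The second Ikzf1 window held 1 and the Ikzf5 window 18, which 21.8% of windows reached. From the first Ikzf1 start the nearest knockout peak lay 25.9 kb away, and so did the nearest wild-type peak (25.9 kb). From the second start the distances were 21.6 kb and 21.7 kb. Among the 177 windows with at least 44 CG dinucleotides, 24.9% were overlapped by a knockout peak and 18.1% by a wild-type peak, so that lacking one was common in that class. Of the 7119 windows with at least 18, 52.3% and 49.1% were overlapped, and of all windows 21.2% and 19.8%.

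Known recognition sequences of blood cell factors were looked for in the same windows, on both strands. The Ikaros core TGGGAA was found in 21.7% of all windows. The GATA factor sequence AGATAA was found in 10.0%. The ETS sequence GGAAGT was found in 19.8% and the RUNX sequence TGTGGT in 13.9%. The E-box CACGTG was found in 6.06%, and the AP-1 sequence TGAGTCA in 4.48%. None of these 6 sequences occurred in the 3 windows printed above, which says only that these letters are not in them.

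Across the family, regions were either present in both genotypes or called in the knockout alone. Both lists held 8 of the 16 regions, the knockout list alone held 8, and the wild-type list alone held 0. Shared means an overlap of at least 1 bp between peaks of the 2 lists. Of the 23364 regions in all, 28.0% were called in the knockout alone, 16.9% in the wild type alone and 55.1% in both. The family's regions belong to 3 genes chosen on the same values and are not independent trials. By gene, Ikzf1 had 2 shared and 3 knockout-only regions, Ikzf2 had 5 and 4, Ikzf4 had 1 and 1, and Ikzf3 and Ikzf5 had 0 and 0. The lists hold no wild-type value where no wild-type peak was called. A knockout-only region is therefore one not called in the wild type, and is not shown to be less open there. A site open in fewer cells and one less open in each cell also cannot be told apart in such bulk libraries.

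**Figure D1:**
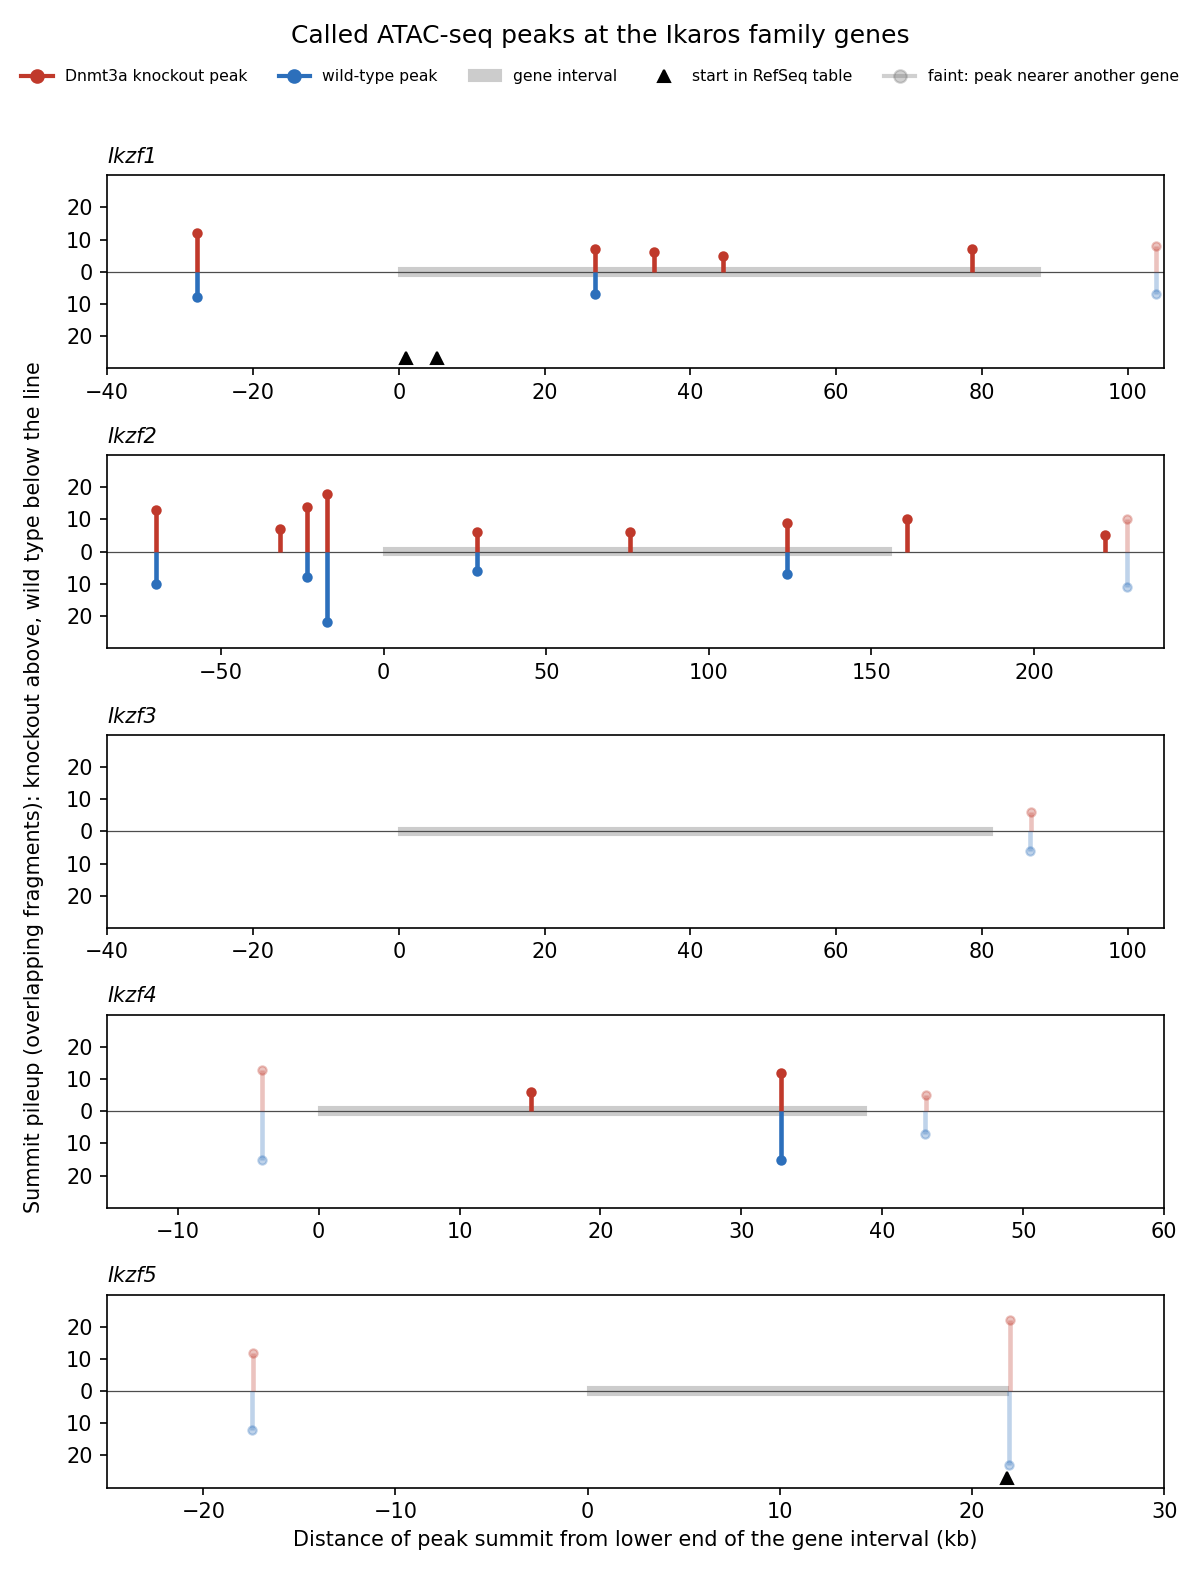
Called peaks at the 5 genes, by distance of the summit from the lower end of the gene interval (kb, x axis) and by summit pileup (overlapping fragments, y axis; knockout above and wild type below the line). Faint marks are peaks nearest to another gene, drawn within 20 kb of the member and, for Ikzf2, also the Spag16 region. In Ikzf1 and Ikzf2, 3 and 4 knockout marks have no wild-type mark under them.

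Ikzf1 spans 88.0 kb of chromosome 11 (11684962 to 11772930). Its 3 knockout-only regions all lay inside the gene, between 35.0 and 78.6 kb from the lower end, downstream of both starts printed above. They had summit pileups of 6, 5 and 7 knockout fragments at 11719925 to 11720046, 11729357 to 11729456 and 11763528 to 11763632. The wild-type list had no peak at any of these, and its nearest peaks lay 7.95, 17.4 and 25.2 kb away. The deposited −log10 q values, which grow as a summit becomes less likely under the local background, were 7.15, 5.28 and 6.83.

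Of the shared Ikzf1 regions, 1 lay in the gene and 1 outside it. The inner one (11711823 to 11711972) had a pileup of 7 in the knockout and 7 in the wild type. Its peaks were 130 and 113 bp wide, and their summits lay 16 bp apart. The outer region (11657209 to 11657474) lay 27.5 kb below the gene and had a pileup of 12 in the knockout and 8 in the wild type. It was 245 bp wide in the knockout and 156 bp in the wild type, the largest ratio of widths among the family's shared regions (1.57), with summits 6 bp apart. The exact Poisson 95% intervals of these pileups, 6.20 to 21.0 in the knockout and 3.45 to 15.8 in the wild type, overlapped.

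Ikzf2 spans 156 kb of chromosome 1 (69531207 to 69687351) beside a wide stretch without protein-coding genes, the next lower one, Erbb4, ending 423 kb away. It had the most regions of the family, 9, and 6 of them lay outside the gene. The strongest family region of either list was the shared one 17.3 kb below the gene (69513627 to 69513919). Its pileup was 18 in the knockout and 22 in the wild type, with fold enrichments of 12.7 and 14.6 in the authors' lists. Knockout and wild-type peaks there were 290 and 280 bp wide. A second shared region 23.3 kb below the gene (69507672 to 69507861) had a pileup of 14 in the knockout and 8 in the wild type, a ratio of 1.75, the highest in the family. The farthest, 69.7 kb below the gene (69461242 to 69461513), had 13 and 10.

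Inside Ikzf2 the shared regions were weaker. The one at 69559819 to 69559978 had a pileup of 6 in the knockout and 6 in the wild type. The one at 69655055 to 69655243 had 9 and 7. Its knockout and wild-type peaks, each 100 bp wide, the least width in either list, overlapped by only 11 bp, with summits 60 bp apart. This is the region whose standing as shared depends most on how overlap is defined.

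The 4 knockout-only regions of Ikzf2 lay on both sides of the gene as well as in it. Only 1 lay inside the gene (69606958 to 69607059, pileup 6). The others lay 31.9 kb below it (69499232 to 69499336, pileup 7), 4.73 kb above it (69692079 to 69692199, pileup 10) and 65.5 kb above it (69752832 to 69752997, pileup 5). The pileup of 10 was the highest of any knockout-only region of the family, but the local background there was also the highest, 0.670 fragments, and the −log10 q was 6.53. The nearest wild-type peaks lay 8.34 kb (region below the gene), 47.0 kb (inside), 36.8 kb and 6.73 kb (above) away.

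Ikzf4 spans 38.8 kb of chromosome 10 (128630839 to 128669671) and held 2 regions, both inside it. The shared region at 128663510 to 128663796 had a pileup of 12 in the knockout and 15 in the wild type, widths of 241 and 261 bp, and summits 7 bp apart. It was the family's only shared region with the wider peak in the wild type. The knockout-only region at 128645791 to 128645901 had a pileup of 6 and a −log10 q of 5.25, the lowest among the family's knockout peaks.

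Ikzf3 (chromosome 11, 98464610 to 98546031) had no peak in either list over its 81.4 kb. The nearest region, 5.08 kb above it, overlapped the testis gene Zpbp2 and had a pileup of 6 in the knockout and 6 in the wild type. At this depth a weakly open site may go uncalled, so accessibility at Ikzf3 was not detectable rather than shown to be absent.

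Ikzf5 (chromosome 7, 131388649 to 131410518) had no region of its own by the assignment used, but a shared region covered its upper end. That region (131410475 to 131410721) overlapped Ikzf5 by 44 bp and the neighbouring gene Acadsb, which encodes an acyl-CoA dehydrogenase, by 121 bp, and was counted with Acadsb. It covers most of the Ikzf5 sequence printed above. Its pileup was 22 in the knockout and 23 in the wild type, with −log10 q values of 26.2 and 28.6 and summits 10 bp apart. Counting it for both genes gives the family 9 shared and 8 knockout-only regions.

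Assignment to the nearest gene also set the other borders of the family. The outer Ikzf1 region was 27.5 kb from Ikzf1 and 29.4 kb from 4930512M02Rik, and so only just assigned to Ikzf1. A shared region above Ikzf1 (11788705 to 11788904) went to Fignl1, 11.4 kb away, against 15.8 kb for Ikzf1. One above Ikzf2 (69759657 to 69759877) went to Spag16, 67.0 kb away, against 72.3 kb. The knockout-only region 6.73 kb from its wild-type peak stayed with Ikzf2, 65.5 kb away, against 73.9 kb for Spag16. Beside Ikzf4, shared regions went to the ribosomal protein gene Rps26 and to Suox, 3.90 and 4.17 kb from Ikzf4. The bordering regions that went to neighbouring genes were shared between genotypes. Mien1 below Ikzf3 and Pstk, whose interval (131371113 to 131392768) overlaps the lower end of Ikzf5, had 1 shared region each and no other. The lower neighbour of Ikzf1, 4930512M02Rik, had 2 shared regions and 1 wild-type-only one.

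The knockout-only peaks of the family were narrow and weak, as unshared peaks were in the whole list. Their median width was 108 bp and their median pileup 6, against 114 bp and 6 for all 6541 knockout-only peaks. No peak in either list was narrower than 100 bp, also the lower quartile of all knockout-only widths. Widths near 100 bp thus lie at the lower limit of the lists. Their −log10 q ranged from 5.25 to 7.15, and none of the family's shared knockout peaks lay in that range (lowest 7.70). Of all knockout peaks within that range, 57.4% had no wild-type partner, and of all wild-type peaks within it 41.0% had no knockout partner. The range was set by the family's own knockout-only peaks, so how many family peaks fall in it is no result. Summit pileups of 5 to 10, the span of these 8 peaks, were found in 10922 of all knockout peaks (55.5%) and 9599 of all wild-type peaks (55.9%), the family's own included.

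**Figure D2:**
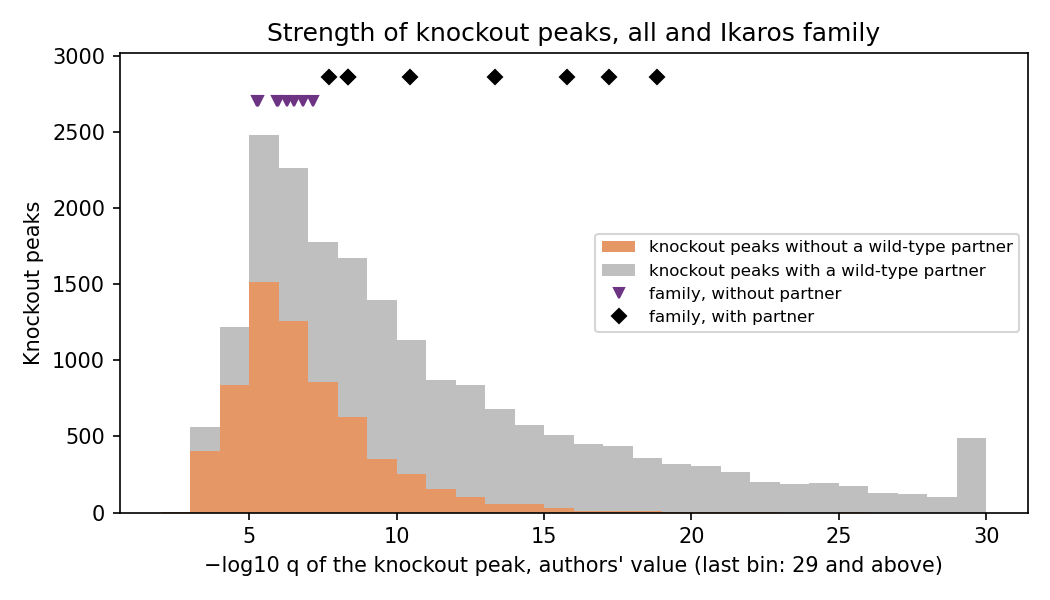
Histogram of the authors' −log10 q (x axis) over all knockout peaks (y axis, number of peaks), stacked by whether a wild-type peak overlapped. Triangles mark the family's 8 knockout-only peaks, between 5.25 and 7.15, and diamonds its 8 shared knockout peaks, from 7.70 to 18.8.

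In the 8 shared regions, the ratio of knockout to wild-type pileup ran from 0.8 to 1.75. Peaks of a shared region overlap by definition, so closeness of their summits is in part set in advance. The pileup was higher in the knockout in 4 regions, equal in 2 and lower in 2. Summed over the regions it was 91 fragments in the knockout (exact Poisson 95% interval 73.3 to 112) and 83 in the wild type (66.1 to 103). The median ratio of knockout to wild-type pileup was 1.14, against 1.09 over all 12871 shared regions; pileups are raw, so these ratios include any difference in depth. Knockout peaks were wider in 6 regions, equal in 1 and narrower in 1, with a median ratio of widths of 1.05 in the family and 1.05 over all shared regions. The median distance between summits was 18.5 bp (5 to 60) in the family and 29 bp over all shared regions.

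**Figure D3:**
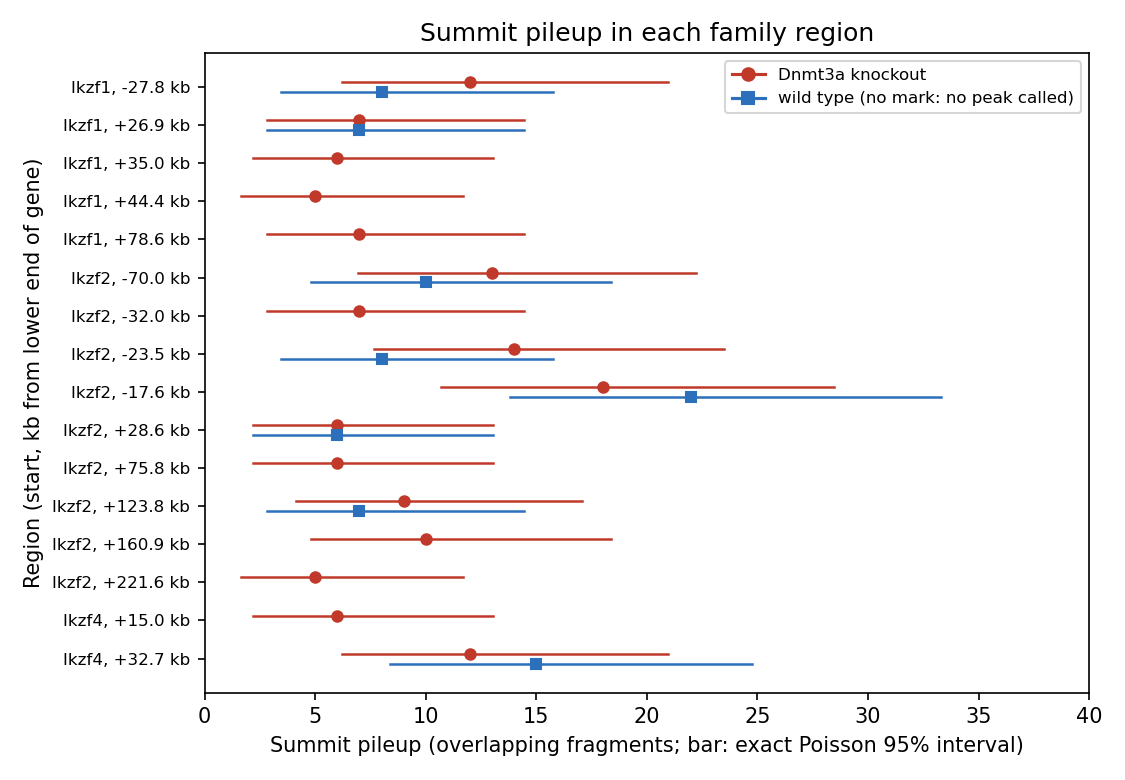
Summit pileup (x axis, overlapping fragments) in each of the 16 family regions (y axis, by distance of the region's start from the gene's lower end, kb), with exact Poisson 95% intervals for counting error. Where both genotypes have a mark the intervals overlap in all 8 regions.

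The median width of all family peaks was 126 bp over 16 knockout peaks and 168.5 bp over 8 wild-type peaks, and 8 of the 16 knockout peaks were the narrow unshared ones. Over the 8 shared regions alone it was 212 bp in the knockout and 168.5 bp in the wild type. In the whole lists the medians were 154 and 150 bp.

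No family region lay within 1 kb of an end of a protein-coding gene. Inside genes lay 9 of 16 and between genes 7 of 16. Of all regions 35.7% lay within 1 kb of a gene end, 38.0% inside genes and 26.3% between genes. The 16 regions belong to 3 genes and the difference was not tested. The assignment also bears on it, since the region over the end of Ikzf5 was counted with Acadsb. Of the knockout-only regions 5 were inside genes and 3 between genes, and of the shared regions 4 and 4. Over all regions, 44.9% of knockout-only regions and 33.5% of shared regions lay inside genes.

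**Figure D4:**
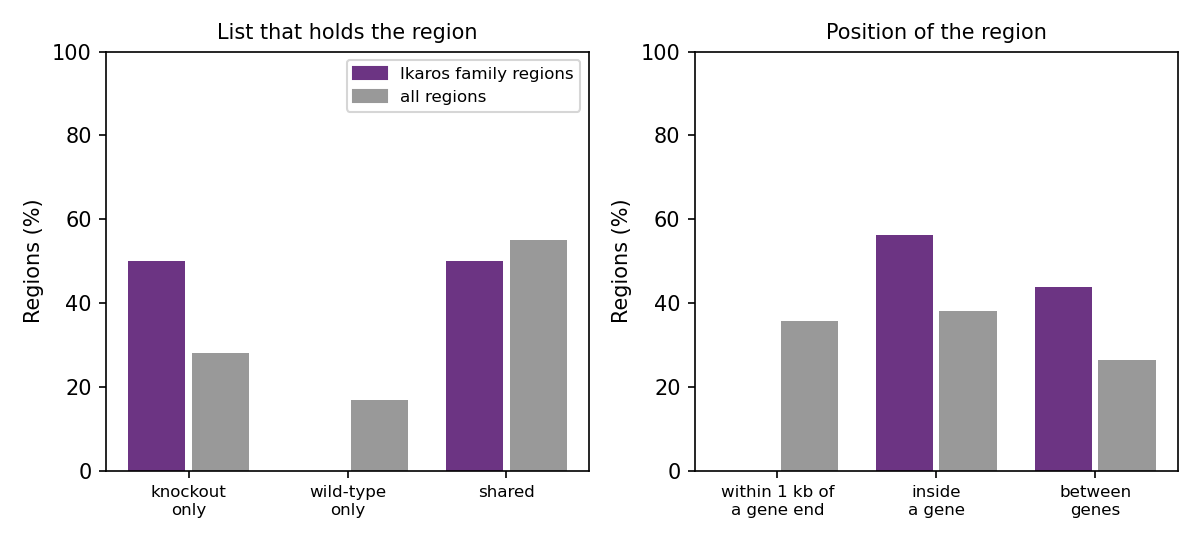
Share of regions (y axis, %) by the list that holds them and by position, for the 16 family regions and all 23364 regions. Bars are shares, with no error shown. The family has no wild-type-only region and none within 1 kb of a gene end.

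Other genes had several knockout-only regions and no wild-type-only one, as Ikzf1 and Ikzf2 did. Of 10966 protein-coding genes with a region, 164 (1.50%) had at least 3 knockout-only and 0 wild-type-only regions, these members included, and 46 had at least 4. Genes with 1 or 2 regions cannot reach this. Of the 838 genes with at least 5 regions, as Ikzf1 and Ikzf2 had, 250 had 0 wild-type-only regions and 92 (11.0% of the 838) had in addition at least 3 knockout-only ones. The reverse, at least 3 wild-type-only and 0 knockout-only regions, was found for 23 genes. Likeness to a member was measured as the Euclidean distance over the 3 region counts (shared, in the knockout only, in the wild type only) from 2 libraries. Exactly the counts of Ikzf1 were found for 24 other genes, those nearest to it in gene length being Slc23a2, which encodes a vitamin C transporter, Dglucy and Pcyt1b. Exactly those of Ikzf2 were found for Plxnc1, which encodes a semaphorin receptor, and Ncoa2, which encodes a nuclear receptor coactivator; Mvb12b was next, at a distance of 1. The counts of Ikzf4 were shared by 815 genes, such as Elf5, Lypla1 and Wdr89.

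Genes of complexes that Ikaros works with are set beside those same percentages of all regions. The 14 NuRD genes had 19 shared regions (79.2%), 3 found in the knockout only (12.5%) and 2 found in the wild type only (8.33%), with 1 knockout-only region each at Mta3 and Hdac2 and 1 wild-type-only region beside Chd4, which encodes the remodelling enzyme that binds Ikaros in mouse lymphocytes. This Chd4 region lay 10 bp outside the gene and had a pileup of 7 in the wild type. The 5 Sin3 and CtBP corepressor genes had 5 shared (50%), 4 knockout-only (40%) and 1 wild-type-only region (10%). Sin3b had 2 knockout-only regions and no other, with knockout pileups of 9 over an end of the gene (−log10 q 11.2) and 7 inside it. Ctbp2 had 1 region in both lists, 2 in the knockout list only and 1 in the wild-type list only, and Sin3a had 2 in both.

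The 7 SWI/SNF remodeller genes had 6 shared regions (54.5%), 2 found in the knockout only (18.2%) and 3 found in the wild type only (27.3%). Smarcc1 and Smarcc2 each had 1 wild-type-only region and Smarcb1 a knockout-only one. The 5 genes of the cereblon ubiquitin ligase, which in human cells degrades Ikaros and Aiolos in the presence of thalidomide derivatives, had 6 regions in both lists (54.5%), 3 in the knockout list alone (27.3%) and 2 in the wild-type list alone (18.2%). Crbn, the cereblon gene, had 2 knockout-only regions with pileups of 4 and 5 and no wild-type peak. Rbx1 had 3 shared regions, 1 knockout-only and 2 wild-type-only ones, and Cul4a 2 shared ones. Apart from NuRD, these lists had 50% to 54.5% of their regions shared, beside 55.1% of all regions. Their knockout-only shares ran from 18.2% to 40%, beside 28.0%, and their wild-type-only shares from 10% to 27.3%, beside 16.9%. Each of these lists had only 10 or 11 regions, and no list was tested.

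Of 19 lymphoid genes known to depend on Ikaros, 9 had a knockout and 8 a wild-type peak, close to the 46.8% and 43.6% of all protein-coding genes. They had 10 shared regions (58.8%), 3 found in the knockout only (17.6%) and 4 found in the wild type only (23.5%), against 55.1%, 28.0% and 16.9% of all regions. Dntt, the terminal transferase gene of early lymphocytes, had 1 knockout-only region inside it, with a pileup of 8. Notch1, a receptor gene of T cell commitment, had 1 shared and 1 wild-type-only region (wild-type pileup 9), and Hes1, a Notch target gene, had 2 shared and 1 wild-type-only (wild-type pileup 8). Cd79a, Cd79b, Ebf1, Cd4 and Cd8a had no region in either list.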

How the data were processed

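Reads were processed by the authors with Trimmomatic, Bowtie2 and MACS2 on mm10 (GRCm38), per the submitters' processing notes. Not given in the sources used here were their versions and parameters, and whether reads were shifted to the Tn5 cut. The authors deposited 1 peak list per library, with a score, a fold enrichment and −log10 p- and q-values. The fold enrichment was taken as the summit pileup over the local background, each with 1 added. The deposited score was the whole part of 10 times the −log10 q in all 36854 peaks. A whole-number summit pileup was solved from the fold and the −log10 p (tolerance 0.001 in −log10 p), unique for 24 of 24 family peaks and for 36758 of all peaks; 96 fitted 2 values.

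Overlapping peaks were merged and assigned to the nearest of 21627 protein-coding gene intervals (GRCm38.p6, the build mm10 names) within 100 kb. A peak over several intervals went to the one it overlapped most. Python 3.11.15, NumPy 2.4.6, pandas 2.3.3, SciPy 1.17.1 and matplotlib 3.10.9 were used. On simulated data 1500 of 1500 pileups and 1000 of 1000 region classes were recovered. The simulation used the same formula that was solved, and well-separated sites with clear overlaps. It therefore checks the code only, not how well the formula fits the authors' lists or how marginal overlaps are classed. The members and gene lists were chosen with earlier results of these data known. Named genes were the members and their neighbours, per partner or lymphoid list up to 3 genes with the largest difference of unshared regions, and per member the 3 most alike in region counts. Foxp3, Il2ra, Ctla4, Cd79a, Cd79b, Ebf1, Cd4 and Cd8a were added after their values were seen. Alternatives were limits on −log10 q, equal list lengths, stricter overlap and other gene assignments. With 1 library per genotype no test was made. Intervals cover counting error only, as 1 library per genotype gives no variation between libraries. They treat a summit pileup as a plain count, although it is the highest point of a called peak. Reads had no molecular identifiers.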

Additional observations from a re-analysis of the deposited data

How the results depend on the processing

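No paired analysis was possible because there was only 1 library of either genotype. The family's regions were recounted under 10 alternatives, and family knockout-only regions numbered from 6 to 9, shared regions from 6 to 9, knockout peaks from 13 to 17 and wild-type peaks from 6 to 9. Wild-type-only regions were 0, except 1 with a reciprocal overlap of 50%, where the Ikzf2 region with 11 bp of overlap splits into a knockout-only and a wild-type-only one. The 3 knockout-only regions of Ikzf1 were counted under every alternative. Both limits on −log10 q were set at 5, below the lowest family values (5.25 in the knockout, 5.17 in the wild type). They could therefore change no family count or width. With equal numbers of peaks the weakest of the 3 was kept at a −log10 q of 5.28. Those of Ikzf2 were 2 over the gene interval with 10 kb on each side, which leaves out the distant ones, 3 with all gene types or within 50 kb, and 5 with the reciprocal overlap. Ikzf1 had 1 shared region with all gene types or over its interval with 10 kb. The knockout-only region of Ikzf4, with a −log10 q of 5.25, was lost with equal numbers of peaks. Ikzf5 gained its shared region by nearest gene end, over the interval with 10 kb, and when counted for every gene overlapped, an alternative chosen after the data were seen. With 10 kb, Ikzf3 gained 1 shared region and Ikzf4 had 3. The median width of knockout peaks was 126 bp with a −log10 q of at least 5 and 212 bp in shared regions only. The median summit distance was 18.5 bp with the nearest pair. No other window was tried for promoters. Summit pileups of 5 to 10 fragments limit what can be said of the unshared regions.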

Other observations

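At the borders of the family, the 2 weakest shared regions were also the least well aligned. The region over the end of Suox (chromosome 10, 128673840 to 128674030) had a pileup of 5 in the knockout and 7 in the wild type, with summits 94 bp apart and 22 bp of overlap. The region over the end of Zpbp2 (chromosome 11, 98551112 to 98551292) had 6 and 6, with summits 96 bp apart and 24 bp of overlap. The median over all shared regions was 29 bp.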
